A study of Caenorhabditis elegans with 12 samples.

Results

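The hsp-16 genes encode small heat shock proteins of Caenorhabditis elegans, and 6 of them were examined here among the 44968 features of the count files: hsp-16.1, hsp-16.11, hsp-16.48, hsp-16.49, hsp-16.2 and hsp-16.41. They were taken as the rows that the authors' result sheets name with these symbols, and all 6 were found and passed the filter on low counts. RNA came from whole L1 larvae of the wild-type strain N2, sequenced as 12 poly(A) libraries, with biological replicates A, B and C in each of 4 groups. Unfed high-salt larvae had 500 mM NaCl and no food, fed high-salt larvae had 500 mM NaCl and OP50 bacteria, unfed low-salt larvae had 100 mM NaCl and no food, and fed low-salt larvae had 100 mM NaCl and OP50. All 4 groups shared the strain, the plating of bleached embryos and 24 h at 25 °C. Without food, newly hatched larvae enter L1 arrest, and high salt can also stop larval growth, so the design sets 2 kinds of stress side by side and together.

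Small heat shock proteins carry an alpha-crystallin domain, assemble into oligomers and hold unfolding proteins without using ATP until HSP70 chaperones can refold them. The hsp-16 genes are a classic heat shock readout in the worm: the transcription factor HSF-1 drives them, and a fluorescent reporter of hsp-16.2 is widely used as a gauge of stress. The genes are arranged as divergent pairs, each with a hsp-16.1-type or hsp-16.2 gene on the one side and a hsp-16.41- or hsp-16.48-type gene on the other.

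All 6 genes lie on chromosome V in the Ensembl release 115 annotation of WBcel235, which was used for arrangement and length only. Of the 3 divergent pairs, hsp-16.1 (T27E4.8) with hsp-16.48 (T27E4.3) and hsp-16.11 (T27E4.2) with hsp-16.49 (T27E4.9) form an inverted duplication on cosmid T27E4, and hsp-16.2 (Y46H3A.3) with hsp-16.41 (Y46H3A.2) lies on Y46H3A. The exons add up to 438, 432, 476, 432, 578 and 640 bases in that order, and no other gene of the annotation overlaps any of them. The duplicated copies are near-identical, and how the authors' counting treated reads that align to several copies is not stated in the available sources. Values of hsp-16.1 against hsp-16.11, and of hsp-16.48 against hsp-16.49, are therefore uncertain one by one. The level of the T27E4 genes against the Y46H3A pair, and sums and shares over the 6 genes, also depend on how such reads were counted. The hsp-16.1 rows held 47.9% to 54.8% of the reads on hsp-16.1 and hsp-16.11, and the hsp-16.48 rows held 47.8% to 54% of the reads on hsp-16.48 and hsp-16.49. The 95% Wilson interval of that share included an even split in 9 of 12 libraries for the hsp-16.1 copies and in 12 of 12 for the hsp-16.48 copies. Ambiguous reads placed at random or counted on both copies would give such a split by themselves, so it cannot show that the copies moved together. Each duplicated set is therefore described jointly, not as independent measurements.

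Libraries held 5613260 to 76542711 reads on genes, of which 1.32% to 81.8% were ribosomal RNA, with the highest shares in fed high-salt C (81.8%) and fed high-salt B (39.9%). Alignment was lowest in unfed high-salt A, at 38.6%, and 17.1% of its aligned reads fell outside genes, where the other libraries had 70.1% to 91.3% and 1.87% to 5.90%. The 6 genes together drew 916 to 64537 reads per library, and the lowest count of a single gene was 71 reads of hsp-16.41 in fed high-salt C, with an exact Poisson 95% interval of 55.5 to 89.6 reads that covers counting error only. Markers of intestine, body wall muscle, pharyngeal muscle, neuron, epidermis and germline were all detected, as whole larvae should give. Summed over their lists, body wall muscle markers ranged over the 4 group means from 4180 to 10930 CPM (counts per 1000000 reads), neuron markers from 843 to 1468, epidermis markers from 224 to 405 and early embryo markers from 17.3 to 52.1 CPM. Levels below are CPM after scaling by the trimmed mean of M-values. Changes are log2 fold changes of the group named first over the group named second, with their standard error (SE). The quasi-likelihood test of edgeR gave the p-values, adjusted by Benjamini-Hochberg over all 18028 genes tested, and a gene was called at an adjusted p under 0.05.

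All 6 genes were expressed in every library, and their levels stood in the same order of group means: lowest in unfed low-salt, then fed high-salt, then unfed high-salt, and highest in fed low-salt larvae. Summed over the 6 genes, expression was 824.8 ± 764.7 CPM in unfed high-salt, 499.6 ± 373.8 CPM in fed high-salt, 144.3 ± 84.05 CPM in unfed low-salt and 1298 ± 417 CPM in fed low-salt larvae (SD, n = 3 each). The libraries within a group differed widely at high salt, and their ranges overlapped: unfed high-salt replicates A, B and C had summed levels of 1685, 569.3 and 220.7 CPM and fed high-salt replicates A, B and C had 930.8, 267.1 and 300.9 CPM. Unfed low-salt replicates A, B and C had 168.6, 213.5 and 50.74 CPM, and fed low-salt replicates A, B and C had 1681, 1358 and 853.5 CPM. The library with the lowest alignment, unfed high-salt A, was also the highest of all 12 for this sum, and its part in the results was not tested beyond the values without it that follow.

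**Figure D1:**
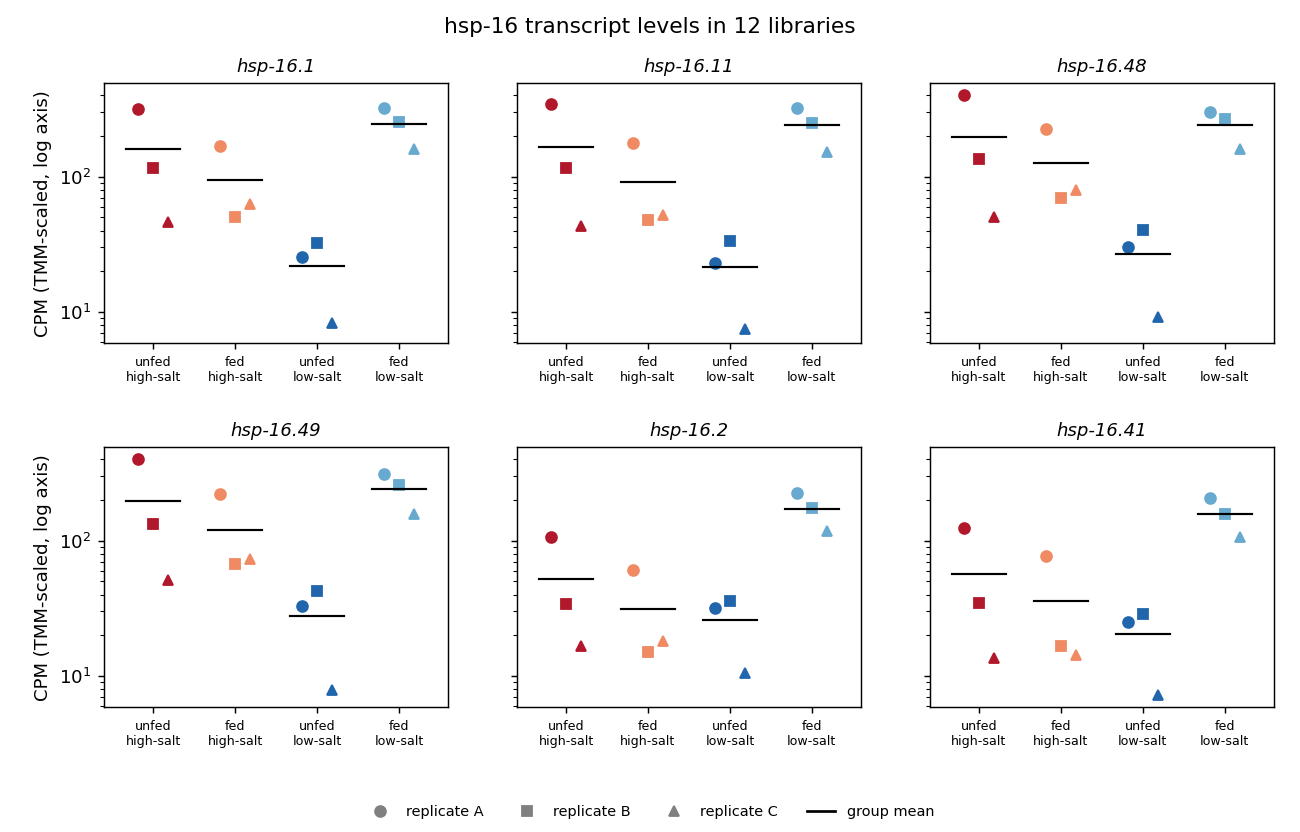
Levels of the 6 hsp-16 genes in each library, in CPM on a log axis, with 1 panel per gene, 1 point per library and a line at each group mean. The 3 unfed low-salt libraries lie below the 3 fed low-salt libraries in all 6 panels, and replicate A is highest in both high-salt groups. Unfed high-salt A lies above all fed low-salt libraries for hsp-16.11, hsp-16.48 and hsp-16.49. For hsp-16.2 replicates B and C of both high-salt groups lie within the range of the unfed low-salt libraries.

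Per kilobase of exon, the genes of the T27E4 duplication stood above the Y46H3A pair in fed low-salt larvae. Reads counted on both copies would raise the T27E4 values and dropped reads would lower them, so the size of this gap is uncertain. There hsp-16.1, hsp-16.11, hsp-16.48 and hsp-16.49 averaged 561 ± 188, 504 ± 177, 560 ± 171 and 559 ± 177 CPM per kb, and hsp-16.2 and hsp-16.41 averaged 298 ± 91.4 and 245 ± 77.2 CPM per kb (SD, n = 3). In unfed low-salt larvae the genes lay closer together, from 31.8 ± 17.96 CPM per kb for hsp-16.41 to 64.3 ± 41.5 CPM per kb for hsp-16.49. In unfed high-salt larvae hsp-16.48 averaged 451 ± 419 CPM per kb and hsp-16.2 averaged 90.2 ± 82.1 CPM per kb. The fed high-salt means were 290 ± 203 CPM per kb for hsp-16.48 and 54.3 ± 44.3 CPM per kb for hsp-16.2.

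The first question was what lack of food did at 100 mM NaCl, and all 6 hsp-16 transcripts were lower without food. The transcript of hsp-16.1 had 25.5, 32.2 and 8.31 CPM in unfed low-salt replicates A, B and C, against 324, 254 and 160 CPM in fed low-salt replicates A, B and C. For hsp-16.48 the values were 30.1, 40.6 and 9.25 CPM in the unfed low-salt libraries and 301, 266 and 159 CPM in the fed low-salt libraries. Every unfed library lay below every fed library for both genes, and unfed low-salt C was the lowest of all. The hsp-16.2 transcript had 31.9, 35.9 and 10.6 CPM in the unfed low-salt libraries, against 224, 175 and 118 CPM in the fed low-salt libraries. For its divergent partner hsp-16.41 the values were 25.2, 28.6 and 7.20 CPM unfed and 205, 158 and 107 CPM fed. The groups did not overlap for any of the 6 genes.

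The log2 fold changes of unfed over fed low-salt larvae were -3.48 ± 0.72 for hsp-16.1, -3.48 ± 0.78 for hsp-16.11, -3.18 ± 0.75 for hsp-16.48 and -3.12 ± 0.77 for hsp-16.49. They were -2.72 ± 0.71 for hsp-16.2 and -2.94 ± 0.83 for hsp-16.41, so that the fold change ran from 6.58-fold to 11.2-fold lower. All 6 were called, at adjusted p-values of 0.0147 to 0.0471, where 7.68% of all genes tested were called and 4.11% were called as lower. Non-overlapping libraries with the unfed ones lower were found in 20.5% of all genes and in all 6 hsp-16 genes. Near-identical copies are among the 6, so they are not independent observations. The calls rested on few libraries: 0 of 6 genes were called without unfed low-salt A, without unfed low-salt B, without fed low-salt A or without fed low-salt B, and 2 with fed low-salt C left out. The share of all genes called fell as well, from 7.68% to 1.91%, 1.39%, 2.23%, 1.40% and 1.96% in these fits in turn. The direction was the same in each of those fits, with hsp-16.1 at -3.86 to -3.15 when each of the 12 libraries was left out in turn. In the authors' deposited table of this comparison, the 6 genes had log2 fold changes of -3.44 to -2.68 and false discovery rates under 0.05.

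Summed markers of intestine, 5 of 5 detected, lay at 977 to 1696 CPM in unfed low-salt and 1949 to 2409 CPM in fed low-salt larvae. Most of that gap was act-5, at means of 560.3 CPM unfed and 1470 CPM fed. The ges-1 mean was also lower unfed, at 37.58 against 44.68 CPM. The markers elt-2, elt-7 and ifb-2 were not lower unfed, at 24.79, 16.18 and 590.6 against 24.41, 11.98 and 552.5 CPM. Summed germline markers, 4 of 4 detected, lay at 47.1 to 112 CPM in unfed low-salt and 291 to 367 CPM in fed low-salt larvae. Their part in the lower hsp-16 levels was not tested, and in whole larvae fewer cells of a type and less RNA per cell cannot be told apart.

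The effect of 500 mM NaCl on fed larvae was taken up next, and here the libraries did not overlap for the Y46H3A pair and overlapped for the T27E4 genes. The hsp-16.2 transcript had 60.9, 15.2 and 18.1 CPM in fed high-salt replicates A, B and C, below all fed low-salt libraries at 224, 175 and 118 CPM. The hsp-16.41 transcript had 77.3, 16.7 and 14.4 CPM in the fed high-salt libraries, also below the fed low-salt libraries at 205, 158 and 107 CPM. For hsp-16.1 the fed high-salt libraries had 169, 50.6 and 63.2 CPM, so that fed high-salt A overlapped with the fed low-salt libraries at 324, 254 and 160 CPM. Of the 6 genes 1 was called, hsp-16.2, which fell with a log2 fold change of -2.44 ± 0.70 (adjusted p = 0.0149), in a comparison where 38.3% of all genes were called and 22.1% were called as lower. That share of 1 in 6 is not above the background. The value for hsp-16.41 was -2.10 ± 0.80 at an adjusted p of 0.0534, and the T27E4 genes stood at -1.38 to -0.95 with adjusted p-values of 0.118 to 0.290. Groups did not overlap for 2 of 6 genes, where 32.1% of all genes had non-overlapping libraries with the high-salt ones lower.

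The number called moved with the settings. Without fed high-salt A, the highest of its group, 4 of 6 genes were called, and without fed high-salt B or C none was, with hsp-16.2 at -2.11 (adjusted p = 0.0541) and -2.21 (adjusted p = 0.0558). It was 2 without any 1 of the unfed high-salt libraries or without unfed low-salt C. In the authors' deposited table, which gives fed low-salt over fed high-salt, hsp-16.2 and hsp-16.41 had log2 fold changes of 2.38 and 2.05, at false discovery rates of 0.000765 and 0.0112. Summed intestine markers lay at 497 to 681 CPM in fed high-salt and 1949 to 2409 CPM in fed low-salt larvae. Most of that gap was act-5, at means of 136 and 1470 CPM. The markers elt-7, ges-1 and ifb-2 were also lower at high salt, whereas elt-2 was higher, at 46.0 against 24.4 CPM. Summed pharyngeal muscle markers, 3 of 3 detected, lay at 6934 to 10230 CPM in fed high-salt and 1013 to 1944 CPM in fed low-salt larvae. The part of either set of markers in the hsp-16 values was not tested.

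Without food, the T27E4 transcripts were higher at high salt. The hsp-16.1 transcript had 315, 117 and 45.9 CPM in unfed high-salt replicates A, B and C, all above the unfed low-salt libraries at 25.5, 32.2 and 8.31 CPM. The hsp-16.48 transcript had 398, 136 and 50.7 CPM in the unfed high-salt libraries, again all above the unfed low-salt libraries at 30.1, 40.6 and 9.25 CPM. The Y46H3A pair overlapped: hsp-16.2 had 106, 33.8 and 16.6 CPM in the unfed high-salt libraries and 31.9, 35.9 and 10.6 CPM in the unfed low-salt libraries. For hsp-16.41 unfed high-salt libraries had 123, 34.7 and 13.5 CPM, and unfed low-salt libraries had 25.2, 28.6 and 7.20 CPM, which overlapped as well.

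Of the 6 genes 4 rose, all of them T27E4 genes, where 17.9% of all genes were called in this comparison and 6.72% as higher. These 4 genes belong to a single duplication with near-identical copies and are not independent observations. Their log2 fold changes were 2.85 ± 0.70 for hsp-16.1, 2.95 ± 0.77 for hsp-16.11, 2.87 ± 0.74 for hsp-16.48 and 2.81 ± 0.76 for hsp-16.49, at adjusted p-values of 0.0126 to 0.0211. The values were 0.99 ± 0.67 for hsp-16.2 (adjusted p = 0.357) and 1.48 ± 0.79 for hsp-16.41 (adjusted p = 0.228). The libraries did not overlap for the 4 T27E4 genes, where 12.3% of all genes had non-overlapping libraries with the high-salt ones higher. Summed intestine markers lay at 350.7 to 683.6 CPM in unfed high-salt and 977.4 to 1696 CPM in unfed low-salt larvae. Of these markers elt-2 went the other way, at means of 49.8 and 24.8 CPM. The part of the markers in the hsp-16 values was not tested. Unfed high-salt A carries much of the rise of the T27E4 genes. Without it 1 of 6 genes was called, hsp-16.1 at 1.88 (adjusted p = 0.0372), where 23.5% of all genes were called. There hsp-16.11, hsp-16.48 and hsp-16.49 stood at 1.88, 1.80 and 1.73 with adjusted p-values of 0.0532, 0.0504 and 0.0719, and hsp-16.2 stood at -0.05. In the authors' deposited table of unfed low-salt over unfed high-salt larvae, 4 of the 6 genes had false discovery rates under 0.05 and the 6 values ran from -3.02 to -1.06.

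**Figure D2:**
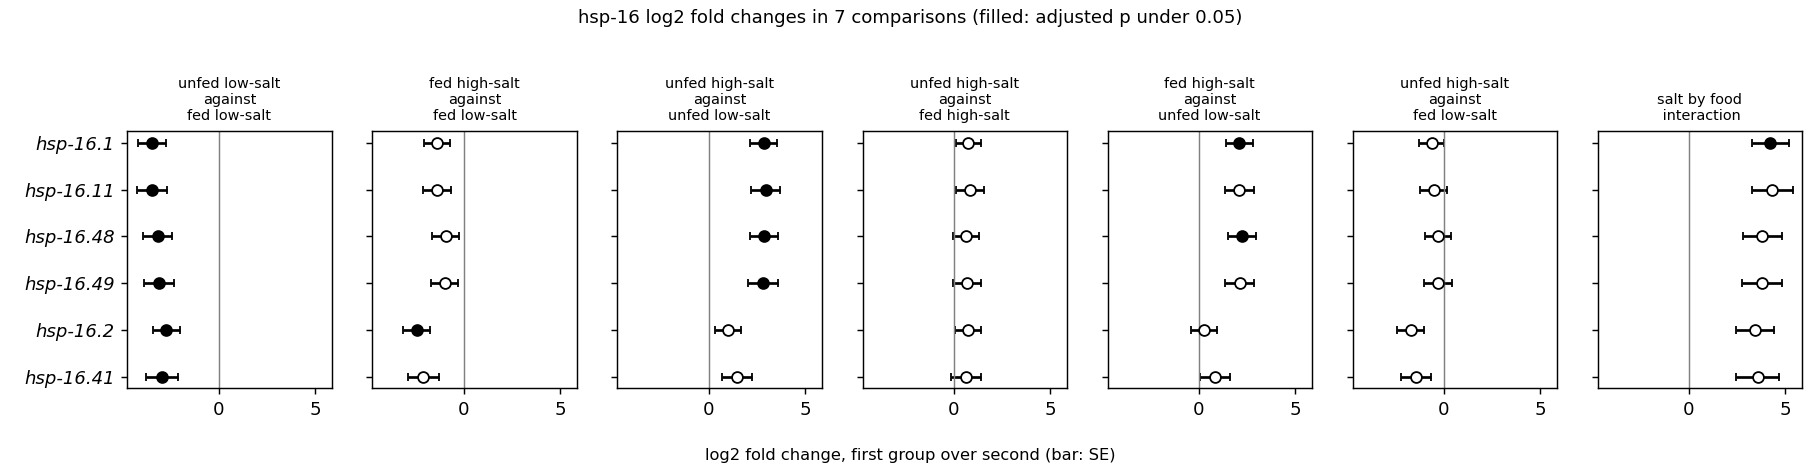
Log2 fold changes with their SE for the 6 hsp-16 genes in 6 comparisons of groups, first group over second, and for the salt by food interaction, which is a difference of log2 fold changes. Filled points have an adjusted p under 0.05. All 6 points lie below 0 for unfed against fed low-salt larvae, and hsp-16.2 and hsp-16.41 lie to the left of the other 4 in each comparison of a high-salt with a low-salt group.

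Lack of food at 500 mM NaCl, unfed against fed high-salt larvae, gave no called hsp-16 gene, where 0.0777% of all genes (14 of 18028) were called. The log2 fold changes were 0.63 to 0.85 with SEs of 0.66 to 0.77, and the libraries overlapped in all 6 genes. No hsp-16 gene had an unadjusted p under 0.05 here, against 1428 of all genes, and the DESeq2 and exact tests called none either. The direction rested on unfed high-salt A, without which all 6 values were below 0, from -0.60 for hsp-16.41 to -0.22 for hsp-16.1.

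The groups on opposite corners of the design were compared as well. Set against unfed low-salt larvae, fed high-salt larvae gave the first of these. There 2 of 6 genes rose, hsp-16.1 at 2.10 ± 0.69 (adjusted p = 0.0436) and hsp-16.48 at 2.23 ± 0.72 (adjusted p = 0.0414), where 21.5% of all genes were called and 7.04% as higher. Their near-identical copies hsp-16.11 and hsp-16.49 stood at 2.11 ± 0.74 and 2.12 ± 0.74, at adjusted p-values of 0.0607 and 0.0595, so that a copy on either side of the threshold does not separate the genes. These 2 calls were lost without any 1 of the 6 low-salt libraries or without fed high-salt A, and 1 was lost without fed high-salt C. The number called was 4 without unfed high-salt A or C. In unfed high-salt against fed low-salt larvae none was called, where 40.1% of all genes were. In that comparison 1 of the 6 genes had an unadjusted p under 0.05, hsp-16.2 at -1.73 ± 0.68 (adjusted p = 0.0587), and the exact test called 1 gene and DESeq2 none. With unfed high-salt A left out 2 of the 6 genes were called, and 1 with fed high-salt A or unfed low-salt C left out.

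The interaction asks whether the change without food differed between the salt levels, as the log2 fold change of unfed over fed at 500 mM minus that at 100 mM NaCl. All 6 values were above 0, from 3.43 ± 0.97 for hsp-16.2 to 4.33 ± 1.05 for hsp-16.11. Of the 6 genes 1 was called, hsp-16.1 at 4.23 ± 0.97 (adjusted p = 0.0430), and the others had adjusted p-values of 0.0538 to 0.113, in a comparison where 2.0% of all genes were called and 1.56% as higher. The call rested on single libraries: none of the 6 genes was called without any 1 fed low-salt library, without unfed low-salt A or B, or without fed high-salt B or C. In those fits 0.283% to 1.02% of all genes were called, against 2.0% with all libraries. The number of hsp-16 genes called was 2 without fed high-salt A, unfed high-salt B or unfed low-salt C, and 6 without unfed high-salt C. Of all genes 0.849%, 2.99%, 5.32% and 1.63% were called in these fits in turn. Intervals around these values are wide, and each comparison shares control libraries with others, so that the columns of values are not independent of each other.

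The ratio of reads between the genomic pairs needs no scaling of libraries, because its parts are counted in the same library. Its size still depends on how reads that align to several copies were counted, which is not stated. Reads on hsp-16.2 and hsp-16.41 made up 13.6%, 12% and 13.6% of the reads on all 6 genes in unfed high-salt replicates A, B and C, and 14.8%, 11.9% and 10.8% in fed high-salt replicates A, B and C. In unfed low-salt replicates A, B and C the share was 33.8%, 30.2% and 35.0%, and in fed low-salt replicates A, B and C it was 25.5%, 24.5% and 26.3%. All 6 high-salt libraries lay below all 6 low-salt libraries, and the widest 95% Wilson interval was that of unfed low-salt C, 32.0% to 38.2%. The share varied far less within a group than the levels did: unfed high-salt A, with the highest summed level, had the same share as unfed high-salt C, with the lowest of its group.

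On a log2 scale, the ratio of the Y46H3A pair to the 4 T27E4 genes was -2.78 ± 0.19 at 500 mM and -1.29 ± 0.31 at 100 mM NaCl (SD, n = 6 each), a difference of -1.49, or 2.81-fold lower at high salt. With food the difference was -1.27 and without food -1.71. Lack of food at 100 mM NaCl moved the ratio the other way, by 0.53, and at 500 mM by 0.08, where the libraries overlapped. The difference between salt levels was -1.53 from hsp-16.2 against hsp-16.1 and hsp-16.11, and -1.43 from hsp-16.41 against hsp-16.48 and hsp-16.49, and it was -1.56 to -1.41 with each library left out in turn. The pairs follow the genome, but the ratio was chosen after its values were seen, and for that reason it is given as a description without a test.

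**Figure D3:**
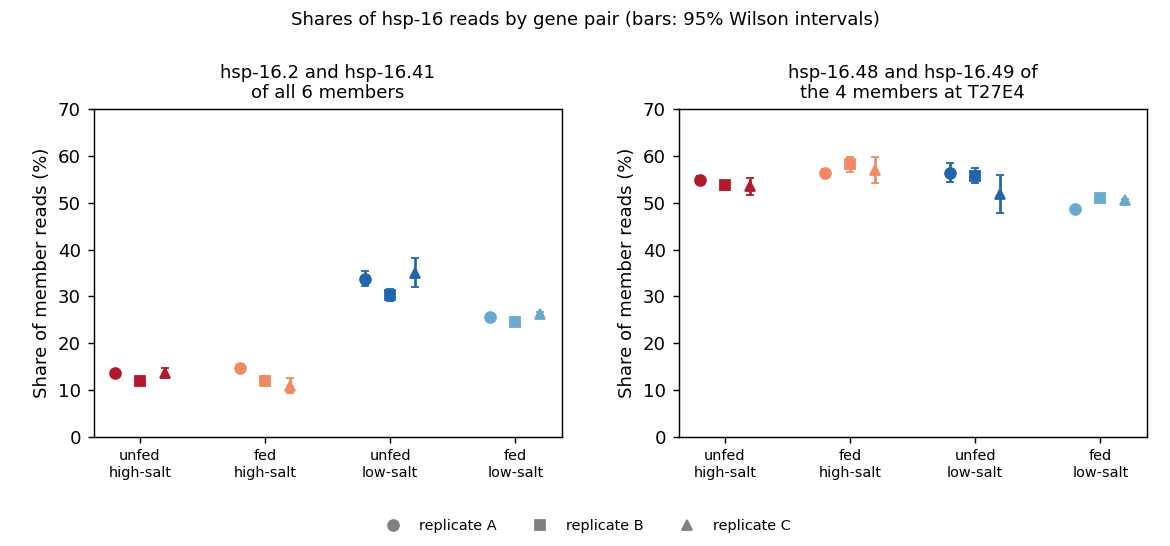
Shares of hsp-16 reads in each library, in percent, with 95% Wilson intervals that cover counting error only. On the left the share of hsp-16.2 and hsp-16.41 among all 6 genes lies at 10.8% to 14.8% in the 6 high-salt libraries and at 24.5% to 35.0% in the 6 low-salt libraries, and on the right the share of hsp-16.48 and hsp-16.49 among the T27E4 genes lies at 48.6% to 58.2% in all 12.

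Within the divergent pairs the partners moved nearly in step. The genes hsp-16.48 and hsp-16.49 held 54% ± 0.747 of T27E4 reads in unfed high-salt, 57.2% ± 0.883 in fed high-salt, 54.7% ± 2.45 in unfed low-salt and 50% ± 1.26 in fed low-salt larvae (SD, n = 3 each), so that the 3 fed low-salt libraries, at 48.6% to 51.0%, were the lowest. Reads on hsp-16.2 made up 44.1% to 59.5% of its pair with hsp-16.41. Across the 12 libraries, Pearson's r of log2 CPM was 0.999 within each set of copies, 0.993 or more among the T27E4 genes, 0.988 between hsp-16.2 and hsp-16.41, and 0.817 to 0.911 between the pairs of different loci. These correlations describe libraries that share 4 groups and are not tests. The value within a set of copies can come from read ambiguity alone.

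Among the 8471 other genes that averaged 10 CPM or more, the patterns most like the mean of the 6 genes over the 12 libraries were those of F44E5.5 and F44E5.4 (r = 0.914 each), which encode near-identical HSP70 chaperones. They were followed by ZK632.11 (0.864), F19B2.5 (0.832) and the germ granule helicase gene glh-2 (0.831). The HSP40 gene dnj-13 (0.798) was also among the 10 most alike. The F44E5.4 transcript averaged 709.7 ± 405 CPM in unfed high-salt, 501.5 ± 258 CPM in fed high-salt, 59.1 ± 29.4 CPM in unfed low-salt and 1031 ± 243 CPM in fed low-salt larvae (SD, n = 3 each), the same order of group means as the hsp-16 genes under the same scaling.

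The cytosolic HSP70 and HSP90 machinery, which takes over the clients of small heat shock proteins, was followed as a list of 16 genes. Of all genes 7.68% were called without food at 100 mM NaCl and 4.11% as lower, with a median of 0.15. Of the list 8 genes fell and none rose, with a median of -1.17. They include the heat-inducible hsp-70 (C12C8.1), which had 5.14, 1.62 and 1.77 CPM in unfed low-salt replicates A, B and C, against 72.3, 69.8 and 45.2 CPM in fed low-salt replicates A, B and C, a log2 fold change of -4.45 ± 0.55 (adjusted p = 0.00113). The nucleotide exchange factor gene hsp-110 fell by 2.29 ± 0.37 on the log2 scale. Leaving out single libraries gave 5 to 10 lower, with 5 without unfed low-salt B or without fed low-salt B. In those 2 fits 1.39% and 1.40% of all genes were called. High salt without food raised 5 and lowered none, where 17.9% of all genes were called and 6.72% as higher. Among the 5 were hsp-70 at 4.12 ± 0.55, F44E5.4 at 3.59 ± 0.53 and hsp-110 at 2.30 ± 0.37. In every fit with 1 library left out 5 or 6 rose.

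With food, high salt raised 1 of the 16 genes and lowered 3, a share called that is not above the 38.3% of all genes. The hsp-70 transcript stood at 0.32 ± 0.47 (adjusted p = 0.601), with 109, 64.9 and 59.7 CPM in fed high-salt replicates A, B and C, which overlapped with the fed low-salt libraries. The co-chaperone gene sti-1 fell by 1.54 ± 0.35. The gene that rose, the HSP90 gene daf-21, stood at 0.76 ± 0.29 (adjusted p = 0.0472), a call that was lost without fed high-salt A or B, without any 1 fed low-salt library, or without unfed low-salt B. Those that fell numbered 5 without fed high-salt A or unfed high-salt C, and 2 without fed high-salt C or without fed low-salt B or C. None of the 16 was called between unfed and fed high-salt larvae, where 0.0777% of all genes were called.

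Other alpha-crystallin genes, 11 in all, split at high salt. With food 5 rose and 4 fell, with a median of 0.69 against 0.12 for all genes, 38.3% of which were called. Without food 4 rose and 1 fell, where 17.9% of all genes were called. F08H9.4, which RefSeq names hsp-16.21 and which lies outside the duplicated pairs, had 879.9, 951.9 and 205.3 CPM in fed high-salt replicates A, B and C, against 3.66, 2.75 and 1.55 CPM in fed low-salt replicates A, B and C. It rose by 8.04 ± 1.07 on the log2 scale with food and by 7.57 ± 1.04 without food. The small heat shock gene hsp-12.6, known as a target of the transcription factor DAF-16, rose by 6.57 ± 0.88 with food and 8.63 ± 0.98 without food, and hsp-12.3 rose by 2.35 ± 0.38 and 4.87 ± 0.44. F08H9.3, named hsp-16.20 by RefSeq, rose by 3.33 ± 0.69 with food, while sip-1, an embryonic small heat shock gene, fell by 1.90 ± 0.39. All of the log2 changes of hsp-16.21, hsp-12.6 and hsp-12.3 given here were called in each of the 24 settings tried. The gene that fell without food, hsp-12.1, stood at -1.51 ± 0.49 (adjusted p = 0.0434), and its call was lost without any 1 of 9 libraries, all but fed high-salt A, unfed high-salt C and unfed low-salt A. Where 7.68% of all genes were called, lack of food at 100 mM NaCl lowered 2 and raised 1 of the 11. Of these hsp-12.3 fell by 2.38 ± 0.40, with a call in each of the 24 settings, and the calls of hsp-25 and ZK1128.7 held in 14 of the 24 each. Both calls were lost without any 1 fed library, at either salt level, or without unfed low-salt A or B.

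**Figure D4:**
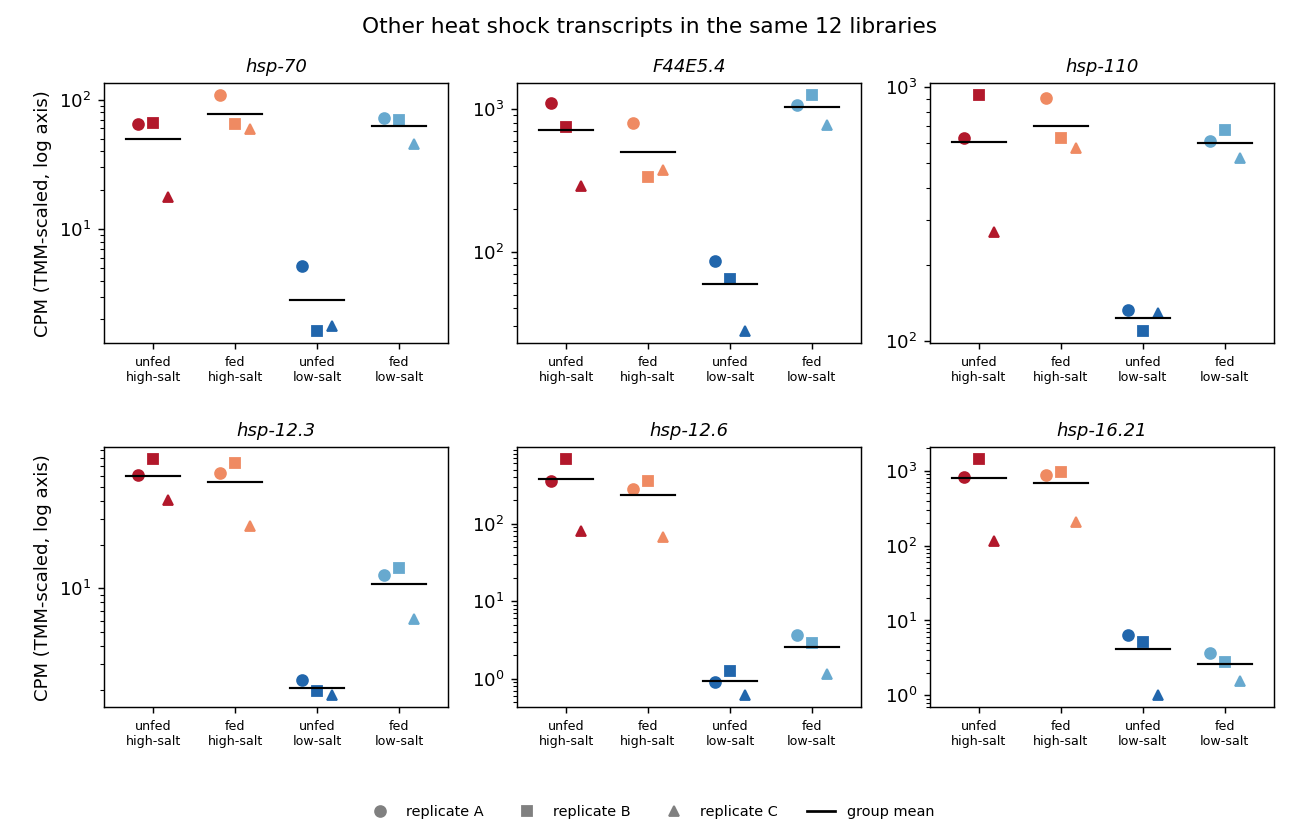
Levels of 3 HSP70-family genes (hsp-70, F44E5.4, hsp-110) and 3 small heat shock genes (hsp-12.3, hsp-12.6, hsp-16.21) in each library, in CPM on log axes that differ between panels, with a line at each group mean. The HSP70-family genes are lowest in the 3 unfed low-salt libraries, and hsp-12.6 and hsp-16.21 are high in all 6 high-salt libraries and at 6.39 CPM or less in all 6 low-salt libraries.

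HSF-1 and its regulators, 10 genes, included none called without food at 100 mM NaCl, where 7.68% of all genes were called. The hsf-1 transcript averaged 59.6 ± 28.4 CPM in unfed low-salt and 50.1 ± 8.76 CPM in fed low-salt larvae (0.25 ± 0.67, adjusted p = 0.833). With food, high salt raised 2 and lowered 2 of the 10, a share near the 38.3% of all genes called. Among those that fell was hsb-1, a negative regulator of HSF-1, which had 14.8, 16.3 and 13.6 CPM in fed high-salt replicates A, B and C, against 35.3, 29.6 and 30.8 CPM in fed low-salt replicates A, B and C, a log2 fold change of -1.09 ± 0.23 (adjusted p = 0.00163). The hsf-1 transcript stood at 1.76 ± 0.69 (adjusted p = 0.0587) in that comparison. The 2 that rose, hpk-1 and daf-2, were both uncalled without fed low-salt A or fed high-salt B and 1 of them without fed low-salt B, and 3 of the 10 rose without unfed high-salt A or C. Those that fell numbered 1 without fed low-salt C, fed high-salt A or fed high-salt C. The hsf-1 transcript stood at 541 CPM in unfed high-salt A, against 130 and 51.3 CPM in unfed high-salt B and C. Unfed high-salt A was also highest for the hsp-16 sum and had the lowest alignment, 38.6%. Fed low-salt replicates A, B and C had hsf-1 at 54.4, 40.05 and 55.9 CPM beside hsp-16 sums of 1681, 1358 and 853.5 CPM. A relation between hsf-1 and hsp-16 levels was not tested.

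Chaperones of mitochondria and the endoplasmic reticulum, 10 genes, fell in both high-salt comparisons, 9 with food and 6 without. Of all genes 22.1% were called as lower with food, and 17.9% were called in either direction without food. The disulfide isomerase gene pdi-2 fell by 3.52 ± 0.35 with food and fell by 2.30 ± 0.33 without food, and the calreticulin gene crt-1 fell by 2.98 ± 0.36 with food and fell by 2.16 ± 0.35 without food. The 9 were called in all fits with 1 library left out, and the 6 became 4 without unfed low-salt C, where 13.1% of all genes were called. Without food at 100 mM NaCl 6 fell, where 7.68% of all genes were called and 4.11% as lower. Only 1 fell without any 1 of unfed low-salt A or B or fed low-salt A, B or C, where 1.39% to 2.23% of all genes were called. It was 3 to 4 without fed high-salt B or A (5.67% and 5.97% of all genes) and 10 without unfed low-salt C (13.2%). The osmotic response list of 9 genes bears on the salt treatment itself. The glycerol synthesis gene gpdh-1, induced by high salt in the worm, rose by 1.52 ± 0.34 with food and by 2.06 ± 0.35 without food, and osm-11, whose loss is known to raise gpdh-1, fell by 2.86 ± 0.36 with food and fell by 3.37 ± 0.36 without food. In contrast to gpdh-1, gpdh-2 fell at high salt. Its log2 fold changes over the settings were -2.23 to -1.56 with food, called in 24 of 24. Without food they were -1.13 to -0.72, called in 21 of 24. Of the 9 genes, 4 rose and 4 fell with food, 2 rose and 3 fell without food, and none was called for lack of food at 100 mM NaCl, where 38.3%, 17.9% and 7.68% of all genes were called in these 3 comparisons. With food those that rose numbered 1 to 4 when single libraries were left out, 1 of them without fed high-salt A or fed low-salt C and 2 without fed high-salt B or C, fed low-salt A or unfed low-salt A. Without food 1 rose without unfed high-salt B or unfed low-salt C, 2 fell without unfed low-salt C, and no other library moved these counts by more than 1 gene.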

How the data were processed

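For the 12 libraries the authors deposited raw counts of reads by gene. Bowtie 1.1.2 and HTSeq appear in the submitters' processing notes. Per the labels' protocols, the library kit was non-directional. Not given in the sources used here are the genome build, the HTSeq settings and the handling of multiply aligned reads. Deposited edgeR tables of the authors give log2 fold changes, log2 average CPM, p-values and false discovery rates and were used for comparison only. The labels give 20 °C for maintenance before the experiment, whereas the workbook's notes give 25 °C for a generation. Nothing beyond the word biological says how replicates were separated.

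The 5 summary lines (no feature, ambiguous and the like) were left out of library sizes. R 4.3.3 with edgeR 4.0.16 kept genes by filterByExpr (minimum count 10, minimum total 15), scaled by TMM and fitted 1 coefficient per group over all 12 libraries with the robust quasi-likelihood F-test. The SE is the size of the log2 fold change divided by the square root of F. The steps were tested on simulated counts. Copies were kept as separate rows, and the alternatives (among them DESeq2 1.42.0, edgeR's exact test, the replicate letter as a block, other factors and filters, each library left out) are given at the end. The members, 5 pathway lists, 7 marker lists and tests were chosen with earlier results of these data known. Named are the members, genes of these lists that were called first, and the 10 genes most correlated with the members' mean log2 CPM (prior count 2).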

Additional observations from a re-analysis of the deposited data

Results flagged for a closer look

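The change without food differed between 500 and 100 mM NaCl by the tested interaction (edgeR's quasi-likelihood test, Benjamini-Hochberg adjusted over 18028 genes) for 1 of 6 hsp-16 genes, 4 of 16 genes of the cytosolic HSP70 and HSP90 list, 1 of the 11 other alpha-crystallin genes and 2 of 10 chaperone genes of mitochondria and the endoplasmic reticulum, where 2.0% of all genes were called. It was called for 0 of the 10 HSF-1 genes and 0 of the 9 osmotic response genes. The interaction value is the log2 fold change of unfed over fed larvae at 500 mM minus that at 100 mM NaCl. For hsp-16.1 it was 4.23 ± 0.97 (adjusted p = 0.0430), with log2 fold changes of 0.75 at 500 mM and -3.48 at 100 mM NaCl. With 1 library left out in turn, the hsp-16.1 call was kept in 5 fits and lost in 7. In the other settings it was kept in 8 and lost in 2. The near-identical copy hsp-16.11 stood at 4.33 ± 1.05 and was not called (adjusted p = 0.0538). For hsp-70 it was 3.80 ± 0.70 (adjusted p = 0.0178), with -0.65 and -4.45 at the same salt levels and a call in 19 of 22 settings. It was 4.62 ± 0.71 for F44E5.4 and 4.63 ± 0.72 for F44E5.5, near-identical copies that count as 1 observation, at adjusted p-values of 0.00750 and 0.00788, and both were called in each of the 22 settings tried. For hsp-110 it was 2.08 ± 0.50 (adjusted p = 0.0443), with a call in 11 of 22 settings. For hsp-12.3 it was 2.52 ± 0.54 (adjusted p = 0.0288), with a call in 16 of 22 settings. The mitochondrial co-chaperone gene dnj-10 had 1.44 ± 0.32 (adjusted p = 0.0327) and the BiP gene hsp-4 had 2.15 ± 0.41 (adjusted p = 0.0181), with calls in 14 and 18 of 22 settings.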

How the results depend on the processing

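In unfed against fed high-salt larvae 0 of 6 genes were called in every setting. In unfed against fed low-salt larvae 6 were called, and 4 to 6 in the settings that keep all libraries or leave out unfed high-salt A with fed high-salt C. With 1 library left out in turn the count ran from 0 to 6 there, from 1 to 4 (4 with all) in unfed high-salt against unfed low-salt, from 0 to 4 (1 with all) in fed high-salt against fed low-salt, from 0 to 4 (2 with all) in fed high-salt against unfed low-salt, from 0 to 2 (0 with all) in unfed high-salt against fed low-salt, and from 0 to 6 (1 with all) for the interaction. The shares of all genes called ran in the same order from 1.39% to 16.7%, 13.1% to 23.5%, 27.7% to 48.0%, 14.3% to 28.8%, 26.9% to 40.8% and 0.283% to 5.44%. In fed high-salt against fed low-salt larvae the count was 6 with the exact test or no count filter, 4 with only the 2 groups compared, and 2 without robust estimation or ribosomal RNA, where 57.4%, 19.5%, 53.7%, 38.3% and 38.1% of all genes were called under these settings in turn. In fed high-salt over unfed low-salt larvae it was 4 with DESeq2, the exact test, only the 2 groups compared, no filter, a filter of 5 CPM in 3 libraries, no robust estimation, no ribosomal RNA, or without unfed high-salt A and fed high-salt C, where 11.2% (no filter) to 36.2% (5 CPM) of all genes were called. In unfed high-salt against fed low-salt larvae it was 2 with no filter or without those 2 libraries, and 1 with the exact test, no robust estimation or no ribosomal RNA, where 22.2% (no filter) to 40.9% (without those libraries) of all genes were called. For the interaction it was 6 with no filter, 5 with DESeq2, 3 without robust estimation, 2 with 5 CPM, without ribosomal RNA or with copies summed, and 0 with upper-quartile factors or without those 2 libraries, where 1.97% (no robust estimation) to 6.79% (DESeq2) of all genes were called. In unfed high-salt over unfed low-salt larvae it was 1 without them, where 25.7% of all genes were called. The count of 2 for the interaction with copies summed is 1 summed row entered under both copy names. Beyond the leaving out of libraries, the cause of these moves was not tested.

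The replicate letters were not taken as pairing the samples. Deviations of same-letter libraries from their group means correlated at -0.094 to 0.352, with 7 of 18 pairs over 0.1 and a median of 0.045, and those of different-letter libraries had 6 of 36 pairs over 0.1 and a median of -0.0275. Of the 12 libraries 8 correlated best with one of their own letter, which is a hint from the data and not from the design. With the letter as a replicate block the counts were 4 in fed high-salt against fed low-salt, 4 in fed high-salt against unfed low-salt, 2 in unfed high-salt against fed low-salt and 6 for the interaction (1 without the block, where 2.0% of all genes were called, against 3.24% with it), and 6, 4 and 0 in the other comparisons.

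Of 996 values for single members under the alternatives, 23 changed sign, none of them called in either fit. In unfed high-salt against fed low-salt larvae hsp-16.48 and hsp-16.49 stood at 0.187 and 0.192 with upper-quartile factors, which moved the median of all genes there to 0.56 from 0.19, at 0.049 and 0.054 with 5 CPM, and at 0.142 and 0.145 without unfed high-salt C. In unfed high-salt over unfed low-salt larvae hsp-16.2 stood at -0.002 without unfed high-salt A and fed high-salt C, and at -0.053 without unfed high-salt A. In unfed against fed high-salt larvae, without those 2 libraries, hsp-16.1, hsp-16.11, hsp-16.2, hsp-16.41, hsp-16.48 and hsp-16.49 stood at -0.391, -0.457, -0.544, -0.914, -0.621 and -0.597, and without unfed high-salt A alone at -0.220, -0.226, -0.330, -0.600, -0.429 and -0.389. In fed high-salt over unfed low-salt larvae hsp-16.2 stood at -0.661 without fed high-salt A and at -0.008 without unfed low-salt C, and hsp-16.41 at -0.384 without fed high-salt A. With 1 library left out in turn, the highest values of these results were 1.413 for hsp-16.2 in unfed high-salt against unfed low-salt larvae, 1.484, 1.735, 1.649, 1.864, 1.385 and 1.468 for the 6 genes in the order above in unfed against fed high-salt larvae, and 0.611 and 1.209 for hsp-16.2 and hsp-16.41 in fed high-salt over unfed low-salt larvae. The lowest were -1.375 and -1.384 for hsp-16.48 and hsp-16.49 in unfed high-salt against fed low-salt larvae. The ratio of the Y46H3A pair to the other 4 genes moved by less than its spread in every setting. The lowest counts, in fed high-salt C and unfed low-salt C, limit precision there.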
